A study of Mus musculus with 6 samples.

Results

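The CC chemokines of RAW264.7 cells, a mouse macrophage line, were examined in cells given lipopolysaccharide (LPS, an endotoxin of Gram-negative bacteria sensed through Toll-like receptor 4) with or without an antibody against the membrane-bound protease MMP14. The 10 genes Ccl2, Ccl3, Ccl4, Ccl5, Ccl6, Ccl7, Ccl9, Ccl12, Ccl17 and Ccl22 were taken by symbol from a table of 40773 gene symbols, and all 10 were found. Cells of the LPS plus 3A2 group received LPS at 100 ng/mL together with 3A2, a neutralizing anti-MMP14 antibody, at 50 µg/mL for 24 h. Cells of the LPS group received the same LPS dose for the same 24 h without 3A2. Each group had 3 biological replicates, and every library came from a single line whose genotype is labelled plain. Untreated cells and an isotype control were not analysed here, so neither the induction of a chemokine by LPS nor an effect of antibody as such can be read from these values.

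CC chemokines are small secreted proteins, named for a pair of adjacent cysteines, that draw leukocytes along a gradient by binding G protein-coupled receptors. Activated macrophages are a main source of them. Ccl2, Ccl7 and Ccl12 encode monocyte chemoattractants that act through CCR2, Ccl3, Ccl4 and Ccl5 encode inflammatory chemokines that draw monocytes and T cells, Ccl6 and Ccl9 encode ligands of CCR1 that are found in rodents, and Ccl17 and Ccl22 encode ligands of CCR4 that draw T cells. Matrix metalloproteinases can cut several of these proteins after secretion, a step that mRNA levels do not show.

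The libraries held 6060732 to 6537419 counts with LPS plus 3A2 and 6431096 to 7432553 counts with LPS. Macrophage markers had counts for 10 of 10. They summed to 6133 to 6567 CPM (counts scaled to a common total of 1000000 per library) in LPS plus 3A2 libraries and 7070 to 7137 CPM in LPS libraries. The lysozyme gene Lyz2 made up most of that sum. Not all were abundant: over the 6 libraries Mrc1 stood at 0.268 to 1.46 CPM and Adgre1 at 11.9 to 15.7 CPM. For 3 of the 10, Lyz2, Csf1r and Itgam, all LPS plus 3A2 libraries lay below all LPS libraries, against 6.46% of all tested genes. The reverse was seen for 0 of the 10. Defining markers of T and B cells were at 0 in all libraries for 7 of 8, those of dendritic cells for 5 of 8 (Flt3 and Clec9a among them), those of epithelial and endothelial cells for 5 of 8, those of neutrophils and mast cells for 5 of 8 and those of fibroblasts and adipocytes for 2 of 8. The neutrophil and mast cell list summed to 5.70 to 6.51 CPM with LPS plus 3A2 and 5.83 to 7.47 CPM with LPS, mostly S100a8. The fibroblast and adipocyte list summed to 24.9 to 28.0 CPM with LPS plus 3A2 and 24.5 to 26.5 CPM with LPS, mostly Fabp4, which macrophages also express. Mitochondrially encoded mRNAs summed to 25668, 21979 and 30934 CPM in LPS plus 3A2 replicates 1, 2 and 3 and to 21915 to 23582 CPM in LPS libraries, so LPS plus 3A2 replicate 3 stood above the others. The part of these differences in the chemokine values was not tested. In bulk RNA, fewer cells of a type and less RNA per cell cannot be told apart.

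The 10 genes lie in 3 groups in the mouse genome, in RefSeq's order of protein-coding genes on GRCm38.p6. On chromosome 11, Ccl2 and Ccl7 are neighbours, with Ccl12 beyond the eotaxin gene Ccl11. Further along chromosome 11, with 27 coding genes between, Ccl5, Ccl9, Ccl6, Ccl3 and Ccl4 follow each other with 0 coding genes between. On chromosome 8, Ccl22 and Ccl17 flank the single gene Cx3cl1. Promoter sequences, from 250 bases before to 50 bases after the start site, were matched in RefSeq's GRCm38.p6 table for 6 members, Ccl3, Ccl6, Ccl9, Ccl12, Ccl17 and Ccl22. The promoters of Ccl9, Ccl6 and Ccl3, which sit next to each other in the genome, are shown because their mRNA levels, given with the results, span a wide range although the genes are adjacent. Capitals mark a match, on either strand, to the TATA box letters TATAAA, the AP-1 motif TGANTCA, the C/EBP motif TTGCNNAA, the core of ETS motifs GGAAGT, a kappaB motif or the core of an interferon-stimulated response element (ISRE), where N is any letter and the motifs given by name alone have 10 letters. The motifs were chosen with these sequences at hand.
Ccl9 (chr11:83578587-83578886, minus strand): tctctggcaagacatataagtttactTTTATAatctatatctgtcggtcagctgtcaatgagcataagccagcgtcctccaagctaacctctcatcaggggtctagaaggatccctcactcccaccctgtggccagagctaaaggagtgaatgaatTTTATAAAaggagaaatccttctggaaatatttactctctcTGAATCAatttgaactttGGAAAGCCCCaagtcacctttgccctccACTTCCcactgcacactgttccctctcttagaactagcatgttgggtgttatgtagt
Ccl6 (chr11:83593038-83593337, minus strand): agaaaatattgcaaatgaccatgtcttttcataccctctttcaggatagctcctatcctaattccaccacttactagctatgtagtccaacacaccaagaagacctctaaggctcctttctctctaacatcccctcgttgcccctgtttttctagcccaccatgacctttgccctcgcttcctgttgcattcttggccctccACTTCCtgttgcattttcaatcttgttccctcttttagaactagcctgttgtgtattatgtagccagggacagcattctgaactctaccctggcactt
Ccl3 (chr11:83649329-83649628, minus strand): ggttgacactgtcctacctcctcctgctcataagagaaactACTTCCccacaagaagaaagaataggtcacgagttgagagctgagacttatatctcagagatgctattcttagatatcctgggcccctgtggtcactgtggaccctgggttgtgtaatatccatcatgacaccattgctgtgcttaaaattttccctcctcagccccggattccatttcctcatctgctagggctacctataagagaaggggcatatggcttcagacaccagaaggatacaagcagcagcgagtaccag

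Among the 6 promoters, GGAAGT was found in 5, against 23.8% of all 32851 promoters of that length. TATAAA was found in 2 of the 6, Ccl9 and Ccl12, against 13.6% of all promoters. The kappaB and AP-1 letters were found in 1 of the 6 each, both times Ccl9, against 4.79% and 7.81% of all promoters. The letters of the ISRE core and of C/EBP were found in 0 of the 6, against 3.44% and 10.8%. The 3 motifs of Ccl9 other than GGAAGT were not found in the window of its neighbour Ccl6. In Ccl9, a pair of TATAAA matches overlap each other on opposite strands. These letters describe 300 bases only and show no binding.

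In the 3′ untranslated regions, the AU pentamer ATTTA, a core of sites through which decay factors shorten the life of cytokine mRNAs, was found in 8 of the 10 members and in 63.3% of 20603 genes (GENCODE M21). The longer form TTATTTATT was found in 0 of the 10 and in 7.15% of all genes. Ccl3 held 5 pentamers in 409 bases, or 12.2 per kb, Ccl4 held 2 in 302 bases, or 6.62 per kb, and Ccl2 held 1 in 275 bases, or 3.64 per kb. The median over all genes was 1.20 per kb, and Ccl5 and Ccl17 held 0. The stretches of 30 bases with the most pentamers, in capitals, are given for the abundant Ccl3 and for Ccl2, in which the fitted difference was largest among members past the filter, and for Ccl12, which held the most per kb and had 0 counts.
Ccl3: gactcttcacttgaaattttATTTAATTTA
Ccl2: tgatgccttaattaatattaaacttATTTA
Ccl12: ATTTAaacaaacttgcttaaataatATTTA

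Transcripts of Ccl3, Ccl9 and Ccl4 made up nearly the whole CC chemokine output in both groups. These 3 genes held 98.8% to 99.0% of the members' counts in LPS plus 3A2 libraries and 99.0% to 99.2% in LPS libraries. Ccl3 alone held 56.7% ± 1.82 with LPS plus 3A2 and 57.3% ± 0.497 with LPS (SD, n = 3 each). Ccl9 held 31% ± 1.68 and Ccl4 11.3% ± 0.328 with LPS plus 3A2, against 30.9% ± 0.321 and 10.8% ± 0.275 with LPS. The share of the members' counts overlapped between the groups for each gene with a count. Ccl2, Ccl5, Ccl6, Ccl7 and Ccl22 were detected at lower levels, and Ccl12 and Ccl17 had 0 counts in all 6 libraries. The upper limit set on 0 counts was 3 counts a library, or 0.459 to 0.495 CPM in LPS plus 3A2 libraries and 0.404 to 0.466 CPM in LPS libraries. This limit covers counting error only.

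**Figure D1:**
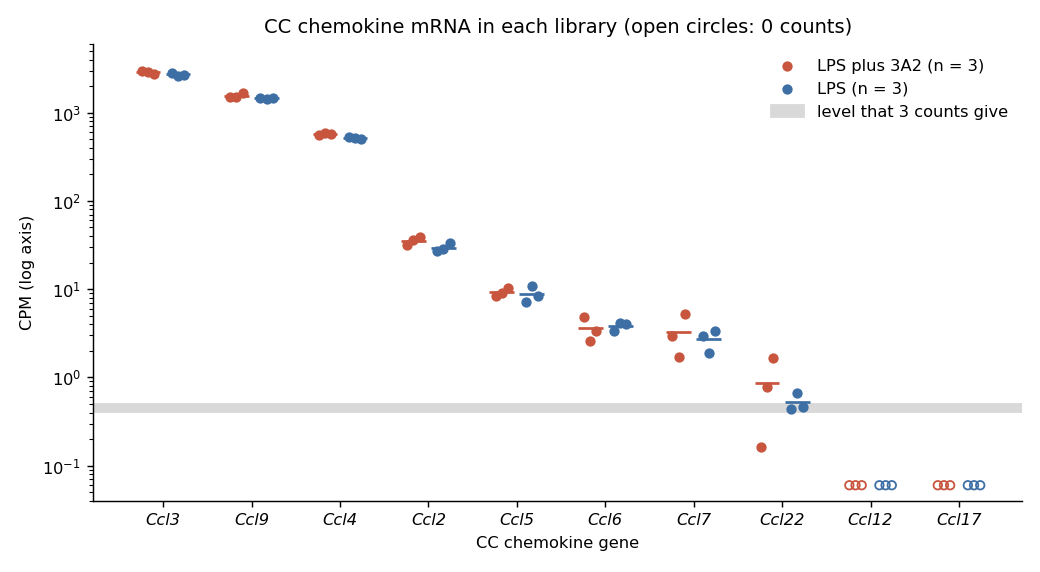
Level of each CC chemokine mRNA in every library, as CPM on a log axis, with points for libraries, short lines for group means and open circles for 0 counts. The grey band is the level that 3 counts give, 0.404 to 0.495 CPM, and only Ccl22, Ccl12 and Ccl17 reach it or lie below it.

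Per exon length, the order of the members' levels was the same in both groups. Ccl3 led at 3735 ± 118 CPM per kb of exon with LPS plus 3A2 and 3534 ± 99.5 with LPS (SD, n = 3 each). Ccl4 followed at 867 ± 23.9 CPM per kb with LPS plus 3A2 and 776 ± 20.9 with LPS. Ccl9 came next at 520 ± 28.7 with LPS plus 3A2 and 486 ± 4.77 with LPS. The order of Ccl4 and Ccl9 depends on length, because the annotated exons of Ccl9 cover 3006 bases and those of Ccl4 cover 660, and Ccl9 had the higher CPM. Ccl2 stood at 43.6 ± 4.48 CPM per kb with LPS plus 3A2 and 36.3 ± 3.92 with LPS, and Ccl5 at 17.5 ± 1.83 and 16.6 ± 3.66 in the same order. Ccl7, at 4.07 ± 2.21 CPM per kb with LPS plus 3A2 and 3.40 ± 0.965 with LPS, and Ccl6, at 2.51 ± 0.798 and 2.66 ± 0.286, did not differ from each other beyond their spread. Ccl22 stood last of the detected genes, at 0.391 ± 0.342 CPM per kb with LPS plus 3A2 and 0.236 ± 0.0572 with LPS.

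Neighbouring genes stood far apart in level. Ccl9 exceeded Ccl6, the next gene, 208-fold per kb with LPS plus 3A2 and 182-fold with LPS. Ccl3 exceeded its neighbour Ccl4 by 4.31-fold per kb with LPS plus 3A2 and 4.56-fold with LPS. Ccl2 exceeded Ccl7 by 10.7-fold per kb in each group. Members shared no 31-base stretch with each other. Of the 31-base stretches of Ccl9, 3.75% occur in transcripts of other genes, as do 0.539% of those of Ccl5 and 1.02% of those of Ccl6, so reads there may be split or dropped.

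**Figure D2:**
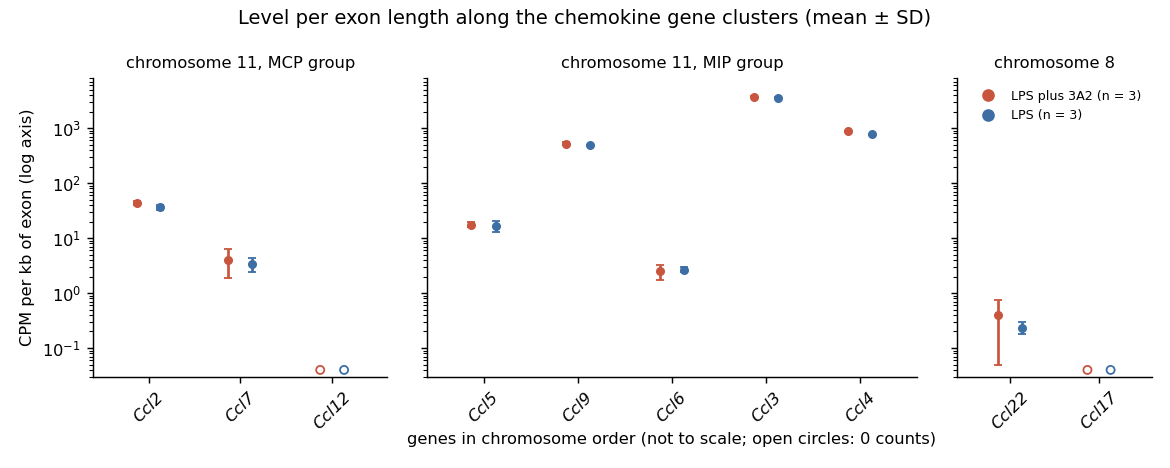
Level per kb of exon, mean ± SD of 3 libraries on a log axis, with the genes in chromosome order and not to scale, and open circles for 0 counts. Ccl9 and Ccl6, which are adjacent, lie 208-fold apart with LPS plus 3A2 and 182-fold apart with LPS.

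The comparison of LPS plus 3A2 with LPS asks what changed when 3A2 was added to LPS-treated macrophages, and 0 of the 7 members that passed the filter on low counts passed at a Benjamini-Hochberg adjusted p under 0.05 in the quasi-likelihood test of edgeR over all 11498 genes. Of all genes, 0% passed, and DESeq2 and limma-voom called 0 genes as well. At an unadjusted p under 0.05, 2 members lay above LPS (Ccl2 and Ccl4) and 0 below, where 3.43% of all genes lay above and 3.09% below. Neither of these kept an unadjusted p under 0.05 with every library left out in turn. All 3 LPS plus 3A2 libraries lay above all 3 LPS libraries for 2 members (Ccl4 and Ccl9), against 5.84% of all genes, and below for 0. The fold change lay above 1 for 6 of the 7, against 50.4% of all genes. The median log2 fold change of the 7 was 0.10, against 0.0017 over all genes. The members were proposed with earlier results of these libraries known, so these counts describe them and carry no test.

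**Figure D3:**
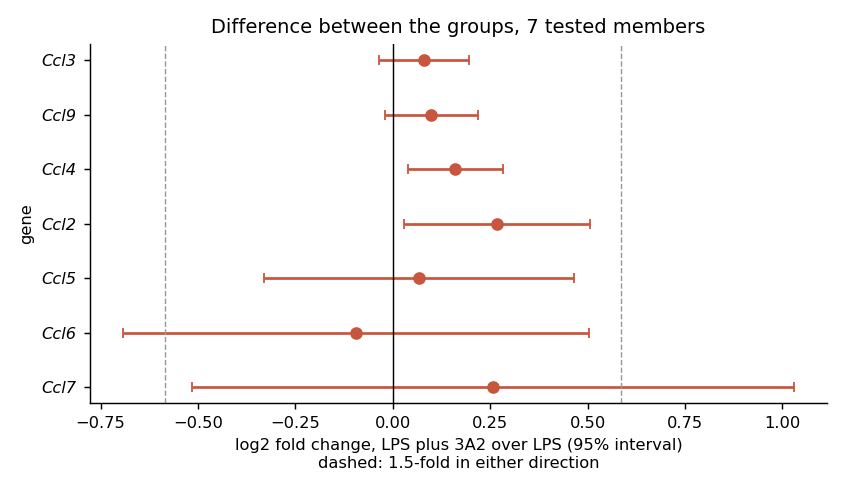
Log2 fold change of LPS plus 3A2 over LPS for the 7 members that passed the filter, with 95% intervals from edgeR and dashed lines at 1.5-fold. Intervals of Ccl3, Ccl9, Ccl4, Ccl2 and Ccl5 lie within 1.5-fold, while those of Ccl6 and Ccl7, which had few counts, do not.

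Ccl4, which encodes MIP-1β, a chemoattractant for monocytes and T cells, had the smallest p-value of the members. It measured 558, 589 and 571 CPM in LPS plus 3A2 replicates 1, 2 and 3, against 525, 514 and 497 CPM in LPS replicates 1, 2 and 3. The groups did not overlap, and the lowest LPS plus 3A2 library stood above the highest LPS library by more than either group's SD of 15.7 and 13.8 CPM. The fold change was 1.12 (95% interval 1.03 to 1.22), with an unadjusted p of 0.0124 that ranked 186 among all genes and an adjusted p of 0.719 by edgeR. With each library left out in turn the log2 fold change ran from 0.14 to 0.18, and the unadjusted p of Ccl4 was 0.0699 without LPS replicate 3.

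Ccl3, which encodes MIP-1α, a ligand of CCR1, measured 2941, 2880 and 2763 CPM in LPS plus 3A2 replicates 1, 2 and 3, against 2784, 2632 and 2706 CPM in the LPS replicates. The groups overlapped, since LPS plus 3A2 replicate 3 stood below LPS replicate 1. The fold change was 1.06 (95% interval 0.976 to 1.14, edgeR adjusted p = 0.813). Ccl3 and Ccl4 lie on opposite strands. Their gene spans overlap by 755 bases in RefSeq, while GENCODE M21 shows no overlap between them. Overlap of their exons was not tested. The libraries were strand-specific, but the annotation and strand setting behind the counts are unknown. It therefore cannot be said whether reads from the RefSeq overlap were counted, or for which gene. The counts of Ccl3 were 5.27, 4.89 and 4.84 times those of Ccl4 in the LPS plus 3A2 libraries and 5.31, 5.12 and 5.44 times in the LPS libraries, and these ratios overlapped.

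Ccl9, which encodes MIP-1γ, a ligand of CCR1, measured 1506, 1521 and 1663 CPM in LPS plus 3A2 replicates 1, 2 and 3, against 1472, 1444 and 1462 CPM in the LPS replicates. The groups did not overlap, but the lowest LPS plus 3A2 library stood above the highest LPS library by less than the SD of the LPS plus 3A2 group, 86.3 CPM. The fold change was 1.07 (95% interval 0.985 to 1.16, edgeR adjusted p = 0.788). On the log2 scale this is 0.10, and 0.053 without LPS plus 3A2 replicate 3, the library highest in Ccl9 and in mitochondrial mRNA. The SD of Ccl9 was 5.52% of the mean with LPS plus 3A2 and 0.983% with LPS, where counting alone gives 1.01% and 0.994%. For Ccl3 the SD was 3.15% and 2.82% of the mean, where counting gives 0.750% and 0.730%, so its spread between libraries exceeded counting error in both groups.

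Ccl2, the main chemoattractant for monocytes, measured 31.6, 35.9 and 38.9 CPM in LPS plus 3A2 replicates 1, 2 and 3, against 26.8, 28.6 and 33.0 CPM in the LPS replicates. The groups overlapped by 1 library, as LPS replicate 3 stood above LPS plus 3A2 replicate 1. The fold change was 1.2 (95% interval 1.02 to 1.42, unadjusted p = 0.0296, edgeR adjusted p = 0.743). Its log2 fold change ran from 0.20 to 0.35 with each library left out in turn. The unadjusted p of Ccl2 was 0.0965 without LPS plus 3A2 replicate 3, 0.129 without LPS replicate 1, 0.0892 without LPS replicate 2 and 0.0588 by DESeq2. Ccl7, its neighbour and a ligand of CCR1, CCR2 and CCR3, had 18, 11 and 31 counts in LPS plus 3A2 replicates 1, 2 and 3, against 20, 14 and 22 in the LPS replicates. The LPS plus 3A2 counts enclosed those of LPS, and the fold change of 1.19 had a 95% interval of 0.699 to 2.04 (edgeR adjusted p = 0.91). Without LPS plus 3A2 replicate 3, which held the most counts, the log2 fold change of Ccl7 turned to -0.23. Ccl12, which lies beyond them, had 0 counts throughout.

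Ccl5, which encodes RANTES, a ligand of CCR1 and CCR3, measured 8.44, 9.08 and 10.4 CPM in LPS plus 3A2 replicates 1, 2 and 3, against 7.18, 11 and 8.29 CPM in the LPS replicates. The LPS libraries enclosed those of LPS plus 3A2. The fold change was 1.05 (95% interval 0.795 to 1.38, edgeR adjusted p = 0.954), and its direction turned without LPS plus 3A2 replicate 3, at a log2 fold change of -0.015, and without LPS replicate 1, at -0.060. Ccl6, a ligand of CCR1, measured 4.87, 2.62 and 3.34 CPM in LPS plus 3A2 replicates 1, 2 and 3, against 3.37, 4.15 and 3.99 CPM in the LPS replicates. The LPS plus 3A2 libraries enclosed those of LPS, and the fold change was 0.937 (95% interval 0.619 to 1.42, edgeR adjusted p = 0.96). Without LPS plus 3A2 replicate 2 its log2 fold change turned to 0.098. Ccl6 lies within the span of E230016K23Rik on the other strand, which had 3, 4 and 14 counts with LPS plus 3A2 and 6, 9 and 5 with LPS, so reads of these genes cannot be told apart with certainty. Ccl5 lies in the RefSeq span of Gm32650, which had at most 3 counts in a library. Ccl2 overlaps Gm17268 on the other strand in GENCODE M21. Gm17268 is not among the counted symbols, so its reads could not be set against those of Ccl2.

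Ccl22, a ligand of CCR4 made by dendritic cells and alternatively activated macrophages, had 1, 5 and 10 counts in LPS plus 3A2 replicates 1, 2 and 3, against 3, 5 and 3 in the LPS replicates. Replicate 3 of LPS plus 3A2 stood highest and replicate 1 lowest of all libraries. This is 0.85 CPM over the LPS plus 3A2 group (exact 95% interval 0.486 to 1.38) and 0.531 CPM over the LPS group (0.265 to 0.95), from totals without scaling. These intervals pool the libraries of a group and cover counting error only, not the spread between libraries. The ratio was 1.60, and its interval from counting error ran from 0.698 to 3.81. Fitted by edgeR without the filter on low counts, the log2 fold change of Ccl22 was 0.69 with an SE of 0.72 (adjusted p = 0.811). Ccl17, the other CCR4 ligand, had 0 counts in all libraries.

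**Figure D4:**
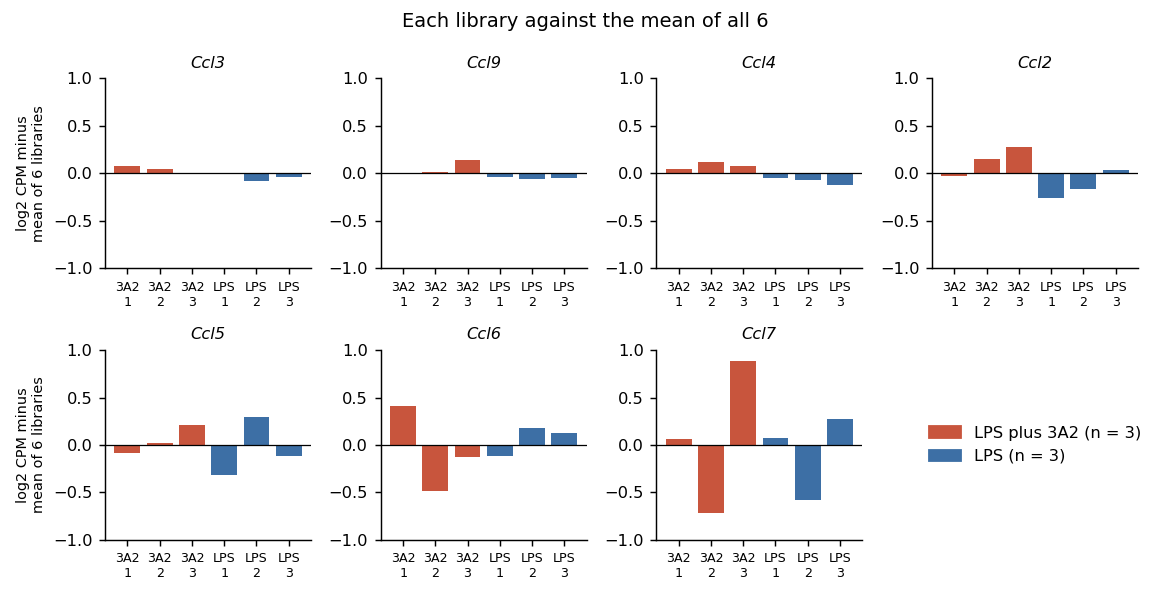
Log2 CPM of each tested member in every library, as the difference from its mean over the 6 libraries, with bars from 0 and the same scale in each panel. All 3 LPS plus 3A2 bars lie above all 3 LPS bars for Ccl9 and Ccl4, and bars of Ccl7, with 11 to 31 counts, are the longest.

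Summed over the 10 members, the level was 5053, 5040 and 5056 CPM in LPS plus 3A2 replicates 1, 2 and 3, against 4822, 4636 and 4715 CPM in the LPS replicates. The groups did not overlap. The means were 5049 ± 8.56 CPM with LPS plus 3A2 and 4724 ± 93.1 CPM with LPS (SD, n = 3 each), a ratio of 1.07, and no test was made of a sum over chosen members. As a share of all counts without scaling, the members held 0.5% to 0.501% in LPS plus 3A2 libraries, against 0.466% to 0.481% in LPS libraries. The Wilson 95% intervals of these shares, which cover counting error only and not the spread between libraries, spanned 0.494% to 0.506% across LPS plus 3A2 libraries and 0.461% to 0.486% across LPS libraries. The 3 LPS plus 3A2 shares lay closer together than the interval of a single library, 0.495% to 0.506% for replicate 1. The SD of 8.56 CPM therefore understates counting error and is no measure of precision. The sum differed less between the LPS plus 3A2 libraries than its parts did. In replicate 3, Ccl3 was lowest and Ccl9 highest of that group.

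Profiles over the 6 libraries, each gene set to its own mean, were closest between Ccl3 and Ccl4, with a root mean square difference of 0.062 on the log2 scale. Ccl4 and Ccl9 followed at 0.064 and Ccl3 and Ccl9 at 0.073. Ccl5 and Ccl7 stood farthest apart at 0.59, with 11 to 31 counts of Ccl7 a library. Counting error adds to these differences and is smallest for Ccl3, Ccl4 and Ccl9, the members with the most counts. Shared control of these genes was not tested. Among 6992 other genes with at least 20 CPM, Rad54l2, Sfmbt1 and B2m lay nearest to the mean profile of Ccl2, Ccl3, Ccl4 and Ccl9, at 0.015, 0.017 and 0.018. The light chain of MHC class I, B2m, measured 844, 862 and 878 CPM with LPS plus 3A2 and 784, 772 and 811 CPM with LPS (edgeR adjusted p = 0.748). That mean profile was higher in every LPS plus 3A2 library than in every LPS library. Genes picked for following it separate the groups by selection, so this is no separate result.

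Among receptors, Ccr1, which binds CCL3, CCL5, CCL6, CCL7 and CCL9, had the highest level and the smallest p-value. It measured 26.5, 24.2 and 33.4 CPM in LPS plus 3A2 replicates 1, 2 and 3, against 21.8, 20.1 and 18.1 CPM in the LPS replicates. The groups did not overlap, and the fold change was 1.4 (95% interval 1.15 to 1.69, unadjusted p = 0.00177, edgeR adjusted p = 0.719). On the log2 scale this is 0.48, and 0.34 without LPS plus 3A2 replicate 3. Of 15 CC receptors and atypical receptors, 3 were tested, 0 passed the adjusted threshold in either direction, 1 lay above LPS at an unadjusted p under 0.05, and 3 had a log2 fold change above 0. The other two were Ccrl2, an atypical receptor, at 1.13-fold, and Ccr2, the receptor of CCL2, with 7, 11 and 18 counts with LPS plus 3A2 and 8, 14 and 12 counts with LPS. Ccr4, the receptor of CCL17 and CCL22, had 0, 1 and 3 counts with LPS plus 3A2 and 1, 1 and 3 counts with LPS. A further 6 receptors had 0 counts in every library. For this list and those below, 3.43% of all tested genes lay above LPS and 3.09% below at an unadjusted p under 0.05 by edgeR. Of all tested genes, 50.4% had a log2 fold change above 0.

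Of 11 other CC chemokine genes, 9 had 0 counts in every library and 1 was tested. This was Ccl25, a thymic and gut chemokine, at 1.18-fold (95% interval 0.778 to 1.80, edgeR adjusted p = 0.887). Factors that induce chemokine transcription, 18 genes, had 0 past the adjusted threshold, 0 above and 1 below at an unadjusted p under 0.05, and 8 fold changes above 1 against 10 below. Cebpb, a factor of inflammatory gene induction, stood at 0.877-fold (0.79 to 0.973, edgeR adjusted p = 0.719), with all LPS plus 3A2 libraries below all LPS libraries. Irf7, the antiviral interferon factor with the highest CPM of them, stood at 1.02-fold (0.935 to 1.12). The 95% interval lay within 1.5-fold for 18 of these 18 genes, against 79.6% of all genes.

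The route from interleukin-4 and GM-CSF to Ccl17 and Ccl22, 11 genes of which 9 were tested, had 0 past the adjusted threshold, 1 above and 1 below at an unadjusted p under 0.05, and 3 fold changes above 1 against 6 below. Il4ra, the gene counted above, encodes the alpha chain through which interleukin-4 signals. It measured 14.4 ± 1.48 CPM with LPS plus 3A2 and 11.2 ± 1.08 CPM with LPS (SD, n = 3 each, edgeR adjusted p = 0.743). Stat6, the signal transducer of interleukin-4 with the highest CPM of this list, stood at 0.948-fold (edgeR unadjusted p = 0.364). It is not the gene counted below. Of 10 factors of mRNA decay and stability, 0 passed, 1 lay below at an unadjusted p under 0.05, and 7 fold changes lay above 1 and 3 below. Zc3h12a, an endonuclease that cuts cytokine mRNAs, measured 37.8, 44.5 and 36.9 CPM in LPS plus 3A2 replicates 1, 2 and 3, against 45, 47 and 47.1 CPM in the LPS replicates. That is 0.858-fold (95% interval 0.745 to 0.989, edgeR adjusted p = 0.748). Ybx3, a cold shock domain protein with the highest CPM of this list, stood at 0.973-fold.

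Of 12 proteases that cut chemokines and proteoglycans that carry them, 8 were tested and 0 passed. At an unadjusted p under 0.05, 2 lay above LPS, against 3.43% of all genes. Fold changes lay above 1 for 3 and below 1 for 5, where 50.4% of all genes lay above. The elastase gene Mmp12 measured 73.8, 58.6 and 71.0 CPM in LPS plus 3A2 replicates 1, 2 and 3, against 46.9, 46.2 and 50.5 CPM in the LPS replicates, or 1.42-fold (95% interval 1.23 to 1.63, edgeR adjusted p = 0.295). Its unadjusted p of 3.34e-05 by edgeR ranked 1 among all tested genes. The adjusted p of Mmp12 was 0.00136 without LPS plus 3A2 replicate 2 and 0.000326 without a filter on low counts. Sdc4, a heparan sulfate proteoglycan, measured 412 ± 22.6 CPM with LPS plus 3A2 and 421 ± 6.17 CPM with LPS.

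**Figure D5:**
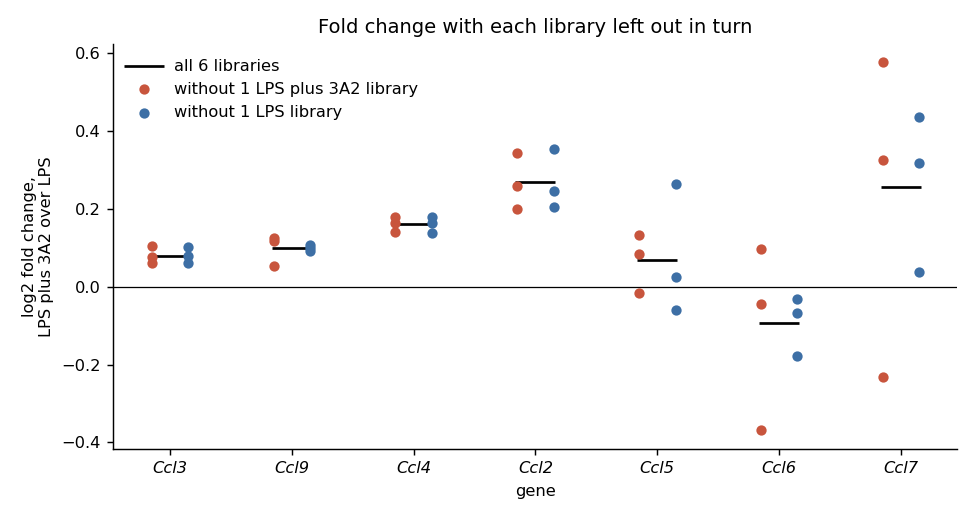
Log2 fold change of LPS plus 3A2 over LPS for each tested member with all 6 libraries (black line) and with each library left out in turn (points, by the group of the library left out). Values of Ccl3, Ccl9, Ccl4 and Ccl2 stay above 0, from 0.053 to 0.35, while those of Ccl5, Ccl6 and Ccl7 cross 0.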

How the data were processed

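RNA from 6 RAW264.7 cultures was sequenced as rRNA-depleted, strand-specific paired-end libraries, per the labels' protocols. The authors deposited raw read counts per gene symbol, 1 column per library, and 5 unnamed columns were not used. HISAT2, edgeR and the build GRCh38 are named without role or version, per the submitters' processing notes. That build is human, while 39282 of 40773 symbols match mouse RefSeq genes. The sources used here give neither the counting program nor its annotation or strand setting.

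Counts were filtered with filterByExpr (11498 genes left), and TMM-scaled. LPS plus 3A2 was set against LPS without covariates in the robust quasi-likelihood test of edgeR 4.0.16 under R 4.3.3, two-sided, with Benjamini-Hochberg adjustment over all tested genes. The p-values rest on replicates labelled biological triplicates. CPM used TMM-scaled totals of tested genes, and lengths per kb came from GENCODE M21 exons. The fit was tested on simulated data. Alternatives were other scalings, filters and tools (DESeq2 1.42.0, limma 3.58.1), the replicate number as a block and leaving out each library.

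The members, lists and motifs were chosen with earlier results of these data known, and the lists' counts carry no test. All 10 members are named. Of each list, any gene past the threshold and the tested genes with the smallest p and the highest CPM are named, with the 3 genes nearest the members' mean profile. Ccr2, Ccr4, Ccrl2, Lyz2, Csf1r, Itgam, Mrc1, Adgre1, Flt3, Clec9a, S100a8 and Fabp4 were named outside that rule, with their values in view. Chi-square per degree of freedom between libraries of 1 group was 3.33 to 22.0, above sampling noise for every pair.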

Additional observations from a re-analysis of the deposited data

How the results depend on the processing

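Ccl2, Ccl3, Ccl4 and Ccl9 kept their direction in 13 of 13 alternatives each, and 0 members passed in any of them. Directions turned with a library left out for Ccl5, with log2 fold changes from -0.060 to 0.26, Ccl6, from -0.37 to 0.098, and Ccl7, from -0.23 to 0.58, and among other named genes for Ybx3 (-0.072 to 0.0098, above 0 without LPS plus 3A2 replicate 3) and Sdc4 (-0.073 to 0.0062, above 0 without LPS plus 3A2 replicate 1). Over all genes edgeR called 0 with all libraries, 16 without a filter on low counts and 1 with the replicate block. With a library left out it called 0 to 25, namely 25 without LPS plus 3A2 replicate 2, 1 without LPS plus 3A2 replicate 3 and 1 without LPS replicate 1. Of the pathway lists, 1 gene, Mmp12, was called without a filter and 1 without LPS plus 3A2 replicate 2 (0 to 1 over the libraries left out); the cause was not tested. The replicate numbers showed no detectable pairing of the samples. Deviations of same-numbered libraries correlated at -0.0065, 0.032 and -0.16, and those of unlike number at -0.16 to 0.16. Not every library correlated best with its own number. With the block 0 members passed. Ccl22, Ccl6 and Ccl7 had 1 to 31 counts a library. With LPS plus 3A2 their SD was 87.5%, 31.9% and 54.1% of the mean, above the 43.3%, 21.2% and 22.4% that counting gives. With LPS it was 24.3%, 10.7% and 28.3%, where counting gives 52.2%, 19.4% and 23.1%. For Ccl22 and Ccl6 the spread with LPS thus lay below counting error.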
